A study of Mus musculus with 8 samples.

Results

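Oxidative phosphorylation genes were chosen by symbol: the mitochondrial genes whose names start with mt-Nd, mt-Co, mt-Atp or mt-Cytb, and the nuclear genes whose names start with Ndufa, Ndufb, Ndufc, Ndufs, Ndufv, Sdha to Sdhd, Uqcr, Atp5 or Cox4 to Cox8. The rule found 110 of the 22056 gene identifiers in the tables, 13 of them on the mitochondrial chromosome and 97 in the nucleus. The prefixes also took in 8 Ndufaf and 4 Sdhaf assembly factors. The gene values of the 13 and the 97 were followed in tumour cells of 8 single-cell 3' RNA libraries. A unique molecular identifier (UMI) marks 1 captured RNA molecule, and a tumour cell was defined as a cell in which UMIs of the eGFP reporter and of Mycl made up at least 0.2% of all its UMIs. Tumour cells were 34719 of the 38460 deposited cells.

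Oxidative phosphorylation makes most of the ATP of a respiring cell. Complexes I and II take electrons from NADH and succinate, complex III passes them to cytochrome c, complex IV gives them to oxygen, and ATP synthase uses the proton gradient that complexes I, III and IV build. All of these except complex II combine subunits encoded in mitochondrial DNA with subunits encoded in the nucleus, so both genomes have to supply parts. The mitochondrial messages are cut from long transcripts of the whole circular genome, while each nuclear gene has its own promoter. Small cell lung cancer is a neuroendocrine lung tumour known for frequent brain metastasis.

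The murine small cell lung cancer line N2N1G was the source of every allograft, and eGFP was read in all libraries. The groups were 2 brain allografts started by direct injection, 3 subcutaneous allografts started by direct injection, and 3 liver allografts started through the tail vein. Each graft received 1000000 cells and was harvested after 3 weeks, and healthy single cells were sorted before the droplet libraries were made. The labels give no host strain, sex, age or sequencing batch. Route and site cannot be told apart in the comparisons with liver. The labels do not say that the replicates of a site came from separate animals, so the p-values measure the spread between these libraries, which may be technical. Everything below describes 1 cell line.

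The tumour cells numbered 2418 and 4060 in brain, 4114 to 4720 in liver and 4150 to 6276 in subcutaneous libraries, with 21689091 to 62047017 UMIs per library and median depths of 7971 to 10542 UMIs per cell. They made up 71.6% and 92.0% of the kept cells of brain replicates 1 and 2 and 93.8% to 98.9% elsewhere. Between 11 and 49 cells per library lay just under the threshold (0.15% to 0.2%) and 21 to 62 just above it (0.2% to 0.25%). A total of 722 tumour cell barcodes occurred in more than 1 library, 10 to 49 per pair of libraries. The tumour cells carried the neuroendocrine genes Insm1 (163 to 308 CPM), Chga (372 to 685) and Ncam1 (185 to 284) in every library, where CPM is UMIs per 1000000 after scaling. Summed macrophage and microglia markers were at 486 and 75.5 CPM in brain tumour cells, against 3.6 to 12.4 in liver and 0.723 to 20.9 in subcutaneous, and at 26010 and 19660 CPM in the other cells of the brain libraries. Astrocyte and oligodendrocyte markers were at 227 and 158 CPM in brain, 42.9 to 50.4 in liver and 36.4 to 40.2 in subcutaneous tumour cells. Summed hepatocyte markers were at 59.9 CPM in brain replicate 2, of which Ttr made up 59.2, and at 8.52 to 24.2 in liver. Alb, Fgb and Serpina1c were at 0 in both brain libraries and above 0 in all 3 liver libraries. Erythrocyte markers stood at 901 CPM in liver replicate 2 and at most 11.0 in the other libraries. Muscle markers were at 15.7 to 20.2 CPM, endothelial markers at 0.775 to 15.9, fibroblast markers at 0.227 to 21.9 and neutrophil markers at 0.0316 to 50.6, and no marker list had a member at 0 in every library. The part of these host RNAs in the results was not tested beyond the values given beside them.

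The promoters of 3 nuclear genes and the sequences of 2 mitochondrial genes are shown because they include the called genes that were higher in brain than in both other sites. The promoters run from 250 bases before to 50 bases after the start of the gene (RefSeq, GRCm38.p6), and the mitochondrial genes are from GRCm38. NRF1, GABPA and YY1 are transcription factors known for binding promoters of respiratory genes. In the Ndufs5 promoter (chr4:123718137-123718436, minus strand) the capitals mark a match to the NRF1 motif.
Ndufs5: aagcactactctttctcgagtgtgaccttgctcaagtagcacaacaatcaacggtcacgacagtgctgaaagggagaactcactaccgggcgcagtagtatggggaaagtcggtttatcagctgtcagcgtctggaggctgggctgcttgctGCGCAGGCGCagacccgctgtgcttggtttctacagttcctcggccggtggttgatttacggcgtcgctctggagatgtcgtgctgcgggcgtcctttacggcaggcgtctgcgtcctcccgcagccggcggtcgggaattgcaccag
The promoter of Ndufb7 (chr8:83566508-83566807, plus strand) held none of the 3 motifs searched.
Ndufb7: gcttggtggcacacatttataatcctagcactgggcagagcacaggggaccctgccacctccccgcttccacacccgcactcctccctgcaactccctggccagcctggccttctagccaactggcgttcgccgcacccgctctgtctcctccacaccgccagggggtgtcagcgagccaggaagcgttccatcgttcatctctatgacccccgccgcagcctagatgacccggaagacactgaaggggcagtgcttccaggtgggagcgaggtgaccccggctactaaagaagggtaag
The promoter of Cox6b2 (chr7:4753045-4753344, minus strand) held none of them either.
Cox6b2: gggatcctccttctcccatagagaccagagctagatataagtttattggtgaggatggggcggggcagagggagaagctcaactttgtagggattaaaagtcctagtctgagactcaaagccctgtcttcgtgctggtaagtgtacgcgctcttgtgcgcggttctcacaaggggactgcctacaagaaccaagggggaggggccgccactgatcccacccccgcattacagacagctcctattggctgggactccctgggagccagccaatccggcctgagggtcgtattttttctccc
The motifs were searched on both strands as GCGCANGCGC for NRF1, CCGGAAGT for GABPA and AAGATGGC for YY1. Of the nuclear genes, 78 matched a promoter by symbol. The NRF1 motif was in 21 of them (26.9%), against 5.19% of 27025 promoters of all genes. The YY1 motif was in 10 (12.8%, against 3.19%) and the GABPA motif in 5 (6.41%, against 4.31%). At least 1 of the motifs was in 34 of the 78 (43.6%), against 11.7% of all promoters. A match describes the letters only.

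In the mitochondrial sequences the capitals mark the stretch that 2 genes share. The last 7 bases of mt-Nd4l (chrM:9877-10173, plus strand) are the first 7 of mt-Nd4 (chrM:10167-11544), and the pair lies on 1 message.
mt-Nd4l: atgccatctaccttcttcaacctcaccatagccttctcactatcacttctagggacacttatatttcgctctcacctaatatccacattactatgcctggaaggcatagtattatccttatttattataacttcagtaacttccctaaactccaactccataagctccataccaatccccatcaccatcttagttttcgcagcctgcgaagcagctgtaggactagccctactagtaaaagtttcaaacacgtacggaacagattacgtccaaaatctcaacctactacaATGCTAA
The last 43 bases of mt-Atp8 (chrM:7766-7969, plus strand) are the first 43 of mt-Atp6 (chrM:7927-8607), again on 1 message.
mt-Atp8: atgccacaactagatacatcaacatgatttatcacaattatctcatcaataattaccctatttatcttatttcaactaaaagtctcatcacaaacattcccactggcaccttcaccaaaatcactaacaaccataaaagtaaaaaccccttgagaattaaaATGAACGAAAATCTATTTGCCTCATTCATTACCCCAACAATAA

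The 13 mitochondrial genes together took 3.08% and 2.94% of tumour cell UMIs in the brain libraries, 2.98%, 2.59% and 2.66% in liver, and 2.61%, 2.23% and 2.30% in subcutaneous libraries. Both brain values lay above all subcutaneous values, liver replicate 1 lay between the brain libraries, and liver replicate 2 lay below subcutaneous replicate 1. Brain averaged 3.01% ± 0.094 (SD, n = 2), liver 2.74% ± 0.206 (SD, n = 3) and subcutaneous tumour cells 2.38% ± 0.202 (SD, n = 3). The 97 nuclear genes took 3.19% and 3.44% in brain, 3.15%, 3.26% and 3.20% in liver, and 3.43%, 3.10% and 3.10% in subcutaneous libraries, and these ranges overlapped for every pair of sites. For the nuclear genes brain averaged 3.31% ± 0.177 (SD, n = 2), liver 3.20% ± 0.0568 (SD, n = 3) and subcutaneous tumour cells 3.21% ± 0.191 (SD, n = 3). The ratio of mitochondrial to nuclear UMIs, which no scaling between libraries enters, averaged 0.910 ± 0.0769 (SD, n = 2) for brain, 0.856 ± 0.0789 (SD, n = 3) for liver and 0.741 ± 0.0204 (SD, n = 3) for subcutaneous tumour cells. It was 0.965 and 0.856 in brain, 0.945, 0.794 and 0.830 in liver, and 0.761, 0.720 and 0.742 in subcutaneous libraries. The brain and liver values did not overlap with the subcutaneous ones, and brain and liver overlapped with each other. These sums over a chosen gene set are descriptions without a test.

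**Figure D1:**
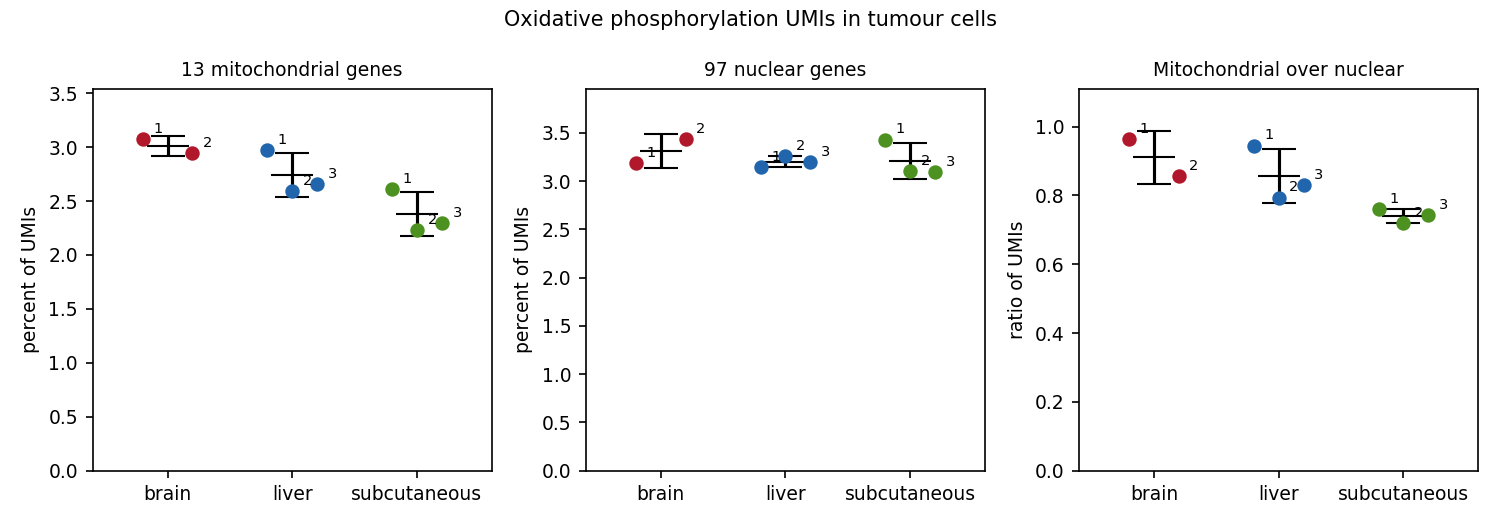
Percent of tumour cell UMIs from the 13 mitochondrial genes (left) and the 97 nuclear genes (middle), and their ratio (right), by site. Each numbered point is 1 library, and bars show the mean and SD (n = 2 brain, 3 liver, 3 subcutaneous). The mitochondrial share ran from 3.01% in brain to 2.38% in subcutaneous tumour cells, while the nuclear means lay at 3.20% to 3.31%.

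The mitochondrial share depends on which cells are kept, because cells with over 10% mitochondrial UMIs were left out. That limit took out 107 tumour cells (4.24%) of brain replicate 1 and 196 (3.03%) of subcutaneous replicate 2, and 40 to 75 cells of each other library. With no limit the shares were 3.29% and 3.00% in brain, 2.61% to 3.01% in liver and 2.30% to 2.64% in subcutaneous libraries. With a limit of 5% they were 2.82% and 2.85% in brain, 2.55% to 2.93% in liver and 2.19% to 2.56% in subcutaneous libraries, so brain still lay above subcutaneous. Leaving out cells with any macrophage or microglia UMI gave 3.16% in brain replicate 1. Within single cells the median share was 2.84% and 2.86% in brain, 2.55% to 2.93% in liver and 2.22% to 2.63% in subcutaneous libraries, and the 10th to 90th percentile of cells ran from 1.87% to 5.04% in brain replicate 1 and from 1.28% to 3.34% in subcutaneous replicate 2. The share was higher in non-cycling than in cycling cells in 8 of 8 libraries, by little in each: 3.09% against 3.05% in brain replicate 1 and 2.68% against 2.56% in liver replicate 2. In the other, non-tumour cells the share was 2.62% and 2.66% in brain, 2.80% to 4.09% in liver and 2.48% to 3.53% in subcutaneous libraries. Their ratio of mitochondrial to nuclear UMIs was 1.14 and 1.02 in brain, 0.845 to 1.12 in liver and 0.817 to 0.913 in subcutaneous libraries. For this ratio both brain values lay above all subcutaneous values, as in tumour cells, and liver overlapped with both.

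Single genes were compared by edgeR's quasi-likelihood test over 13931 genes, with a call at a Benjamini-Hochberg adjusted p under 0.05 over all of them. Of the 110 genes 107 were tested, all 13 mitochondrial and 94 nuclear. Cox8b, Cox8c and a second Atp5o identifier were too low. Between brain and liver 14 of the 107 were called, 7 higher and 7 lower in brain, against 21.8% of all genes (13.2% higher and 8.56% lower). Between brain and subcutaneous 7 were called, all higher in brain, against 15.1% of all genes (8.94% higher and 6.13% lower). Between liver and subcutaneous 2 were called, 1 in each direction, against 2.83% of all genes (0.933% higher and 1.9% lower). The called shares of the 107 were 13.1%, 6.54% and 1.87%. DESeq2 called 16, 13 and 13 of them, against 25.3%, 19.3% and 7.6% of all genes. Each comparison with brain shares the same brain libraries, so the pair of brain comparisons is not independent. The counts rest on single libraries: between brain and liver they fell to 4 without brain replicate 1, 3 without brain replicate 2, 4 without liver replicate 1 and 5 without liver replicate 2, where 7.84%, 8.85%, 12.4% and 11.1% of all genes were called. Between brain and subcutaneous they fell to 2, 1, 4, 2 and 2 without brain replicate 1, brain replicate 2, liver replicate 2, subcutaneous replicate 2 and subcutaneous replicate 3, where 2.7%, 4.13%, 9.85%, 5.05% and 4.75% of all genes were called. They rose to 25 without subcutaneous replicate 1, all of them higher in brain, in a fit that called 34.3% of all genes. Between liver and subcutaneous the count was 13 without subcutaneous replicate 1 (7.39% of all genes), 1 without liver replicate 3, and 0 without brain replicate 1 or 2, liver replicate 1 or 2, or subcutaneous replicate 2, where edgeR gave 13 to 16 genes at an unadjusted p under 0.05. DESeq2 was not run on those smaller sets. Where brain was left with 1 library, that library was assumed to vary like the other groups.

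**Figure D2:**
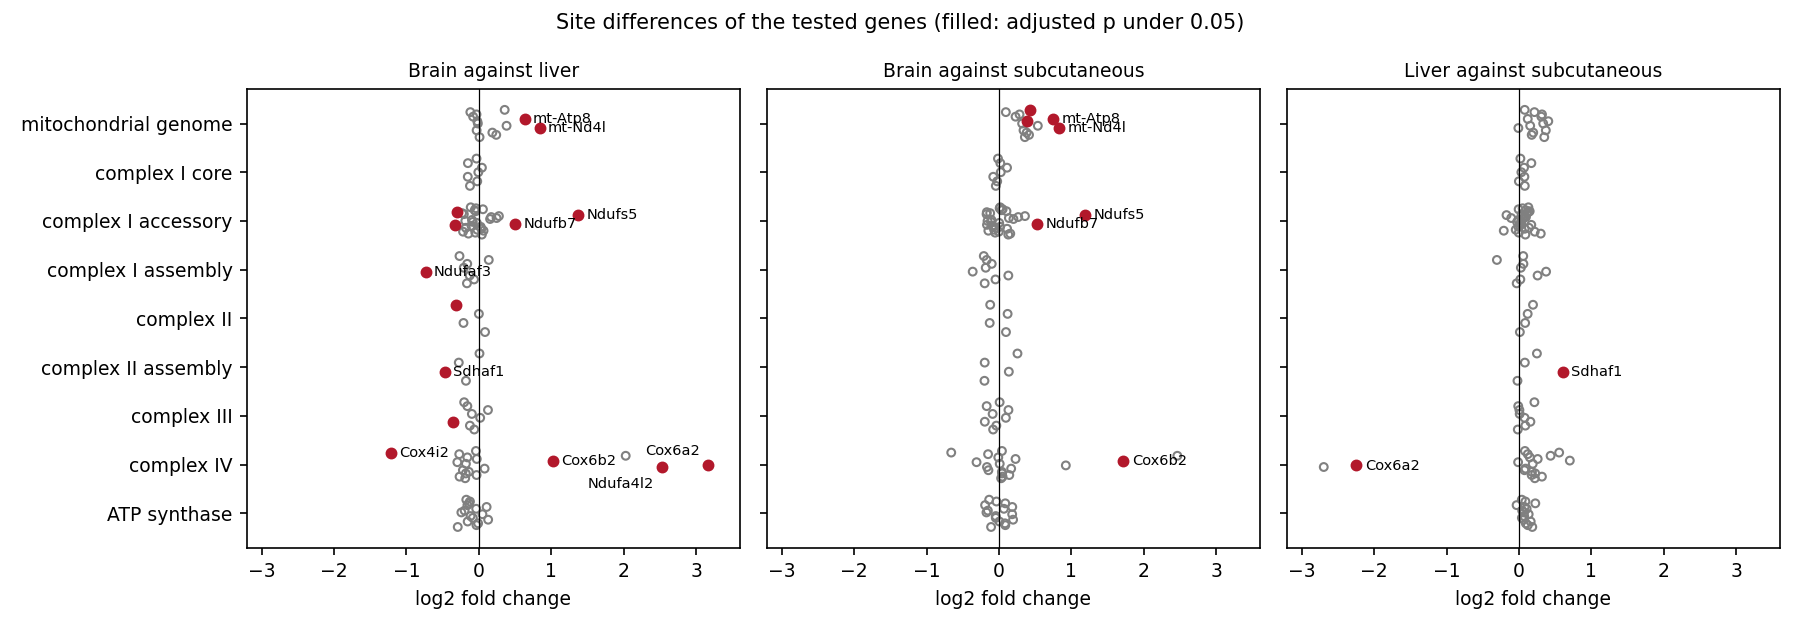
Log2 fold change of each tested gene between sites, by complex, from the edgeR fit over 8 libraries, with positive values higher in the site named first. Filled points passed an adjusted p under 0.05. The mitochondrial genes lay above 0 in brain against subcutaneous, and the core complex I and ATP synthase genes stayed near 0 in all 3 comparisons.

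All 13 mitochondrial genes had a log2 difference above 0 between brain and subcutaneous tumour cells, with a median of 0.38 (median of all genes tested -0.0004). In 11 of the 13 both brain libraries lay above all 3 subcutaneous libraries, a pattern shown by 24.4% of all genes tested. The 13 are cut from shared long transcripts and are not independent of each other, so their counts are not those of separate genes. The direction of all 13 was the same with DESeq2's size factors and with mitochondrial genes left out of the scaling. Of the 13, 4 passed the test (30.8%, against 15.1% of all genes), with 9 at an unadjusted p under 0.05 and 9 called by DESeq2. The 4 were mt-Nd1, mt-Nd4l, mt-Atp6 and mt-Atp8. That count was 0 without brain replicate 1, brain replicate 2, subcutaneous replicate 2 or subcutaneous replicate 3, 2 without liver replicate 2, and 10 without subcutaneous replicate 1. Between brain and liver the median of the 13 was 0.01, and 2 were called (15.4%, against 21.8% of all genes), mt-Nd4l and mt-Atp8. That count was 0 without either brain library or liver replicate 1, 1 without liver replicate 3, and 4 without subcutaneous replicate 1. Between liver and subcutaneous the median was 0.21 and 12 of the 13 were above 0. There 0 were called by edgeR, 6 had an unadjusted p under 0.05, and 6 were called by DESeq2. Without subcutaneous replicate 1 edgeR called 5. It called 1 with either other scaling, with the replicate number as a block and after thinning to 3000 UMIs. The count was also 1 without the deepest 4% of cells and in non-cycling cells.

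The complex I messages of the mitochondrial genome did not all follow the same order of sites. mt-Nd1, a membrane subunit of complex I, was at 3401 and 3404 CPM in brain, 2934, 2423 and 2617 in liver, and 2805, 2316 and 2429 in subcutaneous tumour cells. Both brain libraries lay above the other 6. The difference from subcutaneous was 0.44 log2 (SE 0.12, adjusted p = 0.036) and that from liver 0.36 (SE 0.12, adjusted p = 0.056) in edgeR's test. The call against subcutaneous was lost without brain replicate 1 (adjusted p = 0.125), brain replicate 2 (0.119), liver replicate 2 (0.0512), subcutaneous replicate 2 (0.0969) or subcutaneous replicate 3 (0.0961), with the 5% limit on mitochondrial UMIs and when only those sites were fitted. In non-tumour cells mt-Nd1 was at 3612 and 3399 in brain, 2505, 1963 and 2961 in liver, and 2875, 2525 and 2743 in subcutaneous libraries. These values are CPM without scaling between libraries. Both brain libraries again lay above the other 6, so this order was not particular to tumour cells. What the tumour and non-tumour cells share was not tested. mt-Nd4, another membrane subunit, was at 1556 and 1656 CPM in brain, 1804, 1593 and 1524 in liver, and 1445, 1164 and 1198 in subcutaneous libraries. Its brain and liver values overlapped (log2 difference -0.03), and subcutaneous lay below both (0.34 and 0.37, adjusted p = 0.089 and 0.11). mt-Nd2 was at 865 and 929 CPM in brain, 797 to 1130 in liver and 728 to 1009 in subcutaneous libraries, with overlap throughout. mt-Nd3 was spread widely within subcutaneous libraries, at 457, 194 and 225 CPM, against 459 and 389 in brain and 270 to 356 in liver. mt-Nd5 was at 165 and 136 CPM in brain and 108 to 126 in subcutaneous libraries (0.38 log2, adjusted p = 0.076), and mt-Nd6, read from the opposite strand, was low at 3.40 to 6.60 CPM in all libraries.

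Of the messages for complexes III and IV and mt-Atp6, only mt-Atp6 passed a test, between brain and subcutaneous. mt-Atp6, the proton channel subunit of ATP synthase, was at 7931 and 7378 CPM in brain, 8493, 7480 and 7337 in liver, and 6295, 5647 and 5669 in subcutaneous libraries. All 5 brain and liver values lay above all 3 subcutaneous values. The log2 difference was 0.38 for brain (SE 0.10, adjusted p = 0.039) and 0.40 for liver (SE 0.09, adjusted p = 0.057). The brain call was lost without brain replicate 1 (adjusted p = 0.158), brain replicate 2 (0.0827), liver replicate 2 (0.0641), subcutaneous replicate 2 (0.0985) or subcutaneous replicate 3 (0.101), with the 5% limit, with no filter on low genes and when only those sites were fitted. mt-Co1, mt-Co2 and mt-Co3, the catalytic core of complex IV, and mt-Cytb of complex III gave the same order of groups without passing the test. Against subcutaneous their log2 differences were 0.23 to 0.36 for brain and 0.31 to 0.35 for liver, and brain minus liver was -0.08 to 0.01. mt-Co3, for example, was at 4933 and 4927 CPM in brain, 5415, 4707 and 4813 in liver, and 4233, 3834 and 3780 in subcutaneous libraries (brain against subcutaneous adjusted p = 0.061).

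The short upstream genes of the overlapping pairs behaved differently from their downstream partners. mt-Nd4l, a small membrane subunit of complex I, was at 89.8 and 78.0 CPM in brain, 46.0, 50.8 and 43.7 in liver, and 61.9, 38.1 and 41.5 in subcutaneous tumour cells. Brain exceeded all other libraries, by 0.84 log2 over liver (SE 0.19, adjusted p = 0.015) and 0.83 over subcutaneous (SE 0.19, adjusted p = 0.022). The liver call was lost without brain replicate 1 (adjusted p = 0.0954), brain replicate 2 (0.0504) or liver replicate 1 (0.0563), and the subcutaneous call without brain replicate 1 (0.132), brain replicate 2 (0.0696), subcutaneous replicate 2 (0.0590) or subcutaneous replicate 3 (0.0717), and when only those sites were fitted. Counted against the partner on the same message, mt-Nd4l had 5.77 and 4.71 UMIs per 100 of mt-Nd4 in brain, 2.55, 3.19 and 2.87 in liver, and 4.29, 3.27 and 3.46 in subcutaneous libraries. The lower brain value (exact 95% interval 4.54 to 4.88) and the highest other value, subcutaneous replicate 1 (4.12 to 4.46), were close. The intervals cover counting error only. Without cells holding macrophage or microglia UMIs the ratio of brain replicate 1 was 5.03, and in the non-tumour cells of the brain libraries it was 3.28 and 3.06.

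mt-Atp8, a small subunit of ATP synthase, was at 46.8 and 36.3 CPM in brain, 24.7, 31.4 and 24.2 in liver, and 30.0, 21.1 and 22.9 in subcutaneous tumour cells. Both brain libraries lay above the other 6, with log2 differences of 0.63 from liver (SE 0.18, adjusted p = 0.039) and 0.75 from subcutaneous (SE 0.18, adjusted p = 0.028). Per 100 UMIs of mt-Atp6 it had 0.590 and 0.492 in brain, 0.291, 0.420 and 0.330 in liver, and 0.476, 0.374 and 0.403 in subcutaneous libraries. Brain replicate 2 (exact 95% interval 0.467 to 0.519) overlapped with subcutaneous replicate 1 (0.451 to 0.503) within counting error. The liver call was lost without brain replicate 1 (adjusted p = 0.236), brain replicate 2 (0.0593), liver replicate 1 (0.117) or liver replicate 3 (0.0984), with the 5% limit, in non-cycling cells and without cells holding macrophage or microglia UMIs. The subcutaneous call was lost without brain replicate 1 (0.182), brain replicate 2 (0.0569), subcutaneous replicate 2 (0.0824) or subcutaneous replicate 3 (0.0881), and when only those sites were fitted. A 3' library assigns reads near the polyadenylated end, so how reads of 1 message are split between its overlapping genes also depends on the counting, whose settings are not given in the sources used here.

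**Figure D3:**
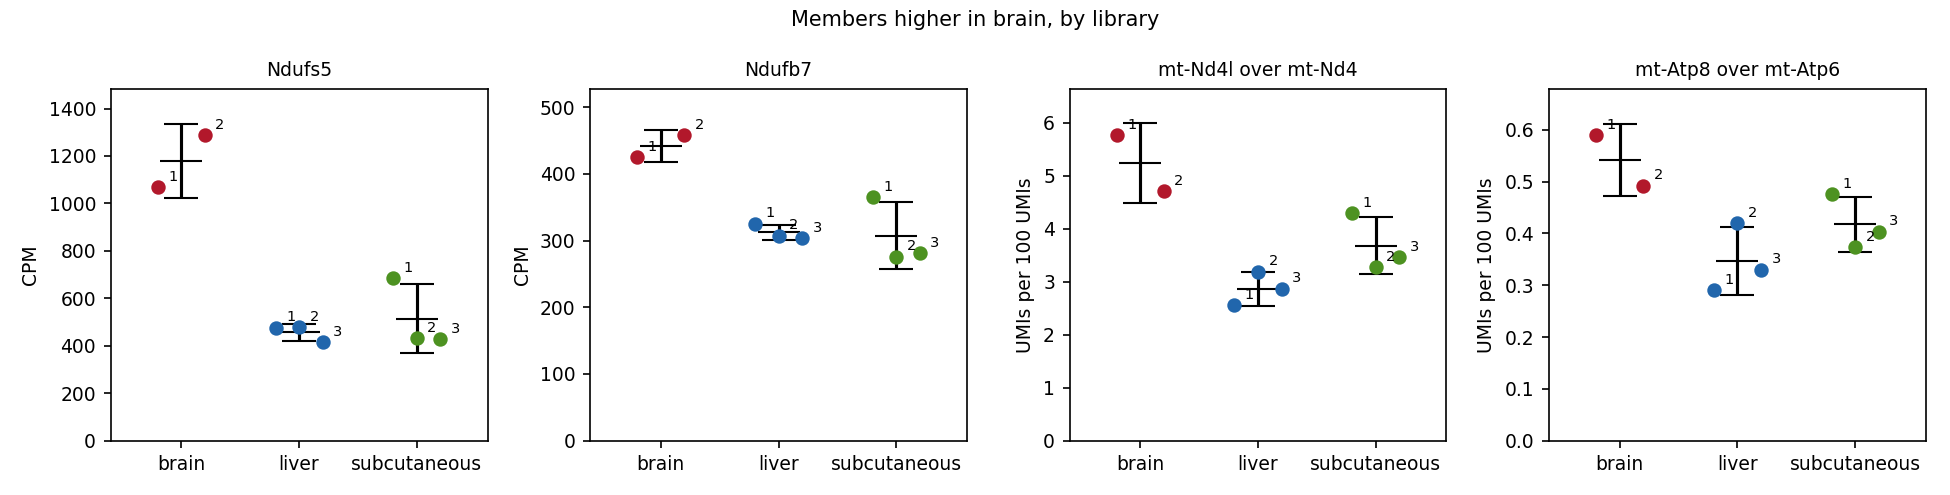
Values by library for Ndufs5 and Ndufb7 in tumour cells (CPM, left pair of panels) and for mt-Nd4l per 100 UMIs of mt-Nd4 and mt-Atp8 per 100 UMIs of mt-Atp6 (right pair of panels). Numbered points are libraries, and bars show the mean and SD (n = 2 brain, 3 liver, 3 subcutaneous). Brain lay highest in each panel, from a wide gap for Ndufs5 (1068 and 1289 CPM, others at most 684) to a narrow one for mt-Atp8.

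The nuclear genes varied little between sites. Of the 94 tested, 12 were called between brain and liver (5 higher and 7 lower in brain), 3 between brain and subcutaneous (all higher) and 2 between liver and subcutaneous. These shares of 12.8%, 3.19% and 2.13% stood against 21.8%, 15.1% and 2.83% of all genes tested. The median log2 difference of the 94 was -0.10 for brain against liver, 0.001 for brain against subcutaneous and 0.08 for liver against subcutaneous. Both brain libraries lay below all 3 liver libraries for 30 of the 94 and above them for 8, against 25.6% and 28.1% of all genes tested (53.7% in either direction). Against subcutaneous the counts were 19 below and 9 above (22.7% and 24.4% of all genes, 47.1% together), and liver lay above subcutaneous for 16 and below for 2 (12.1% and 12.8%, 24.9% together). The brain against liver median was -0.0135 without brain replicate 1 and -0.144 without brain replicate 2, and the number of calls fell to 4 and 3. Among genes of at least 100 CPM the highest library was 1.28-fold over the lowest for the median of 71 nuclear oxidative phosphorylation genes, and 63 of them (88.7%) stayed under 1.5-fold. The same figures were 1.39-fold and 66.7% for 1620 genes of that level, 1.5-fold for 10 mitochondrial genes, 1.30-fold for 34 genes of the mitochondrial ribosome, 1.53-fold for 85 of the cytosolic ribosome and 2.72-fold for 11 of the glycolysis and hypoxia list. The spread ran from 1.11-fold for Ndufc2, a small complex I subunit, to 3.11-fold for Ndufs5.

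**Figure D4:**
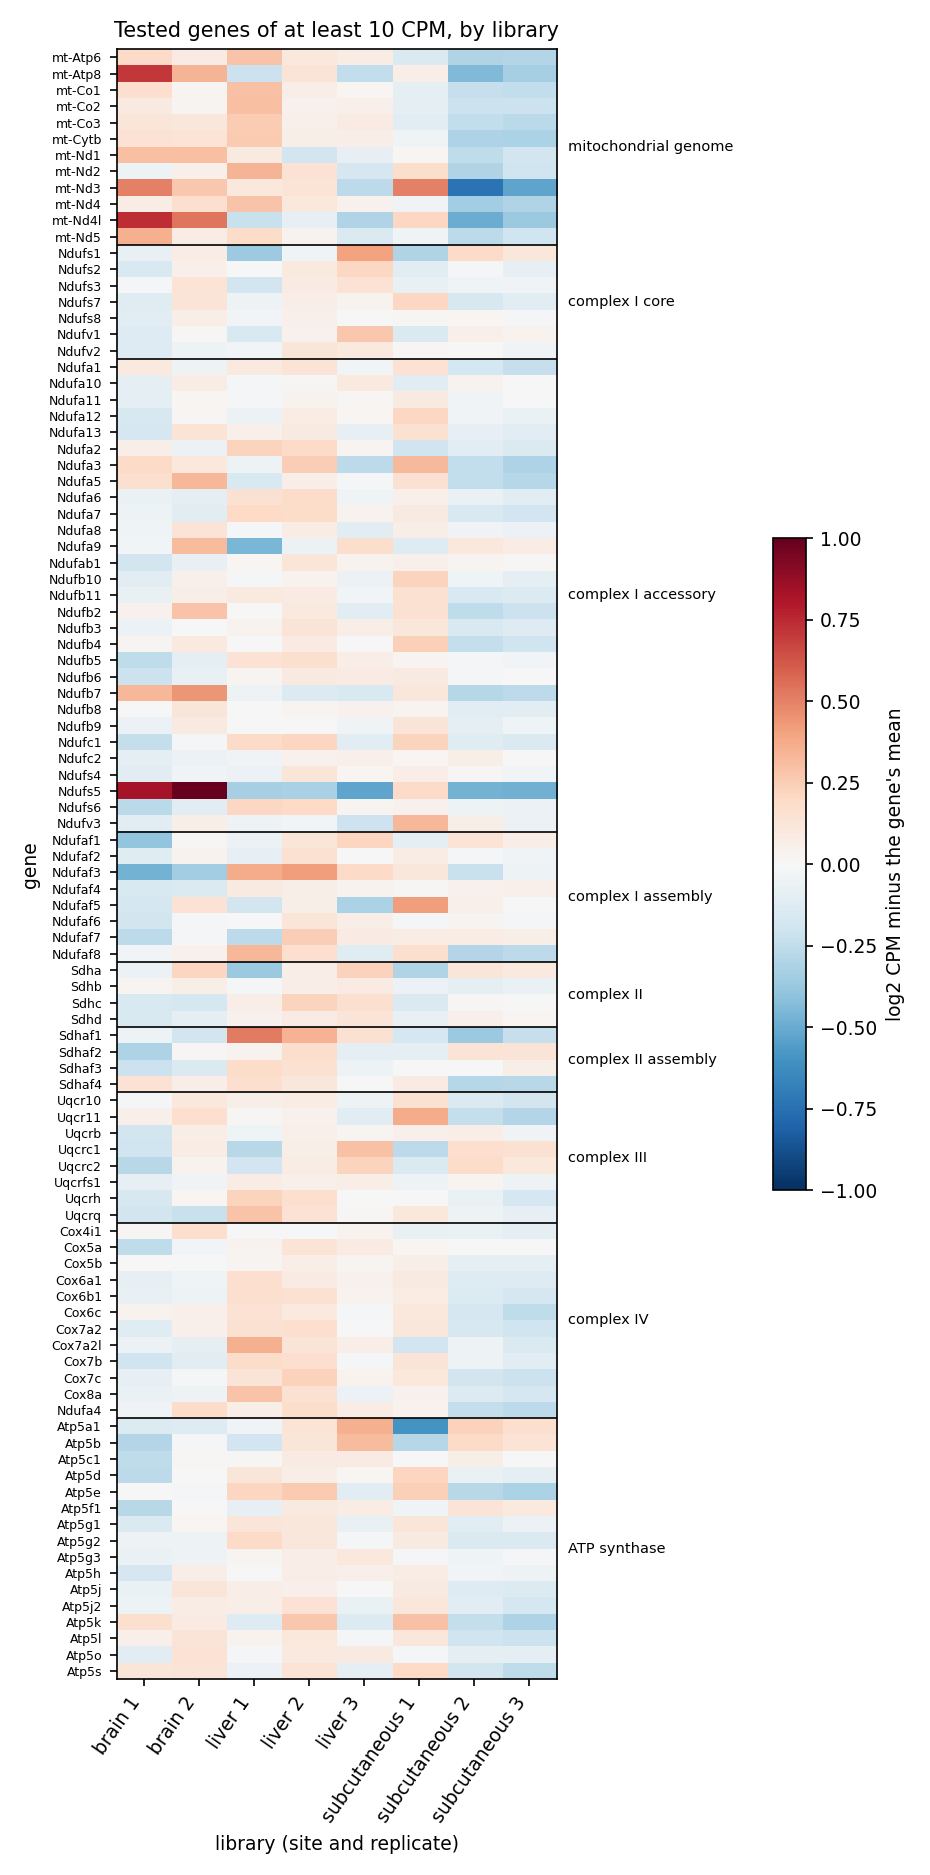
Log2 CPM minus the mean over the 8 libraries for the tested genes of at least 10 CPM, with genes grouped by complex in rows and libraries in columns. Red is above and blue below the mean of the gene, and colours saturate at 1 and -1. Most nuclear genes stay pale. Within the rows of Ndufs5, Ndufb7, mt-Nd4l and mt-Atp8 the brain columns are the reddest, and mt-Nd3 is blue in subcutaneous libraries 2 and 3.

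Complex I, the NADH dehydrogenase, held the largest difference among the called genes of at least 10 CPM. Ndufs5, an accessory subunit of its membrane arm, lies at chr4:123712710-123718202 on GRCm38. It was at 1068 and 1289 CPM in brain, 477, 479 and 415 in liver, and 684, 431 and 429 in subcutaneous tumour cells. Both brain libraries stood well above the other 6, and subcutaneous replicate 1 stood above the remaining 5. The log2 difference was 1.37 from liver (SE 0.20, adjusted p = 0.0027) and 1.19 from subcutaneous (SE 0.20, adjusted p = 0.0073). The liver call held when any library was left out, and the subcutaneous call was lost without brain replicate 2 (adjusted p = 0.0531). In the non-tumour cells Ndufs5 was at 223 and 285 UMIs per 1000000 in brain, 330 to 406 in liver and 302 to 538 in subcutaneous libraries, so the cells around the brain tumours had less of it than the tumour cells. Ndufb7, another accessory subunit (chr8:83566671-83571626), was at 425 and 458 CPM in brain, 325, 307 and 304 in liver, and 365, 276 and 281 in subcutaneous libraries. Brain again lay above all others, with log2 differences of 0.50 (SE 0.13, adjusted p = 0.023) and 0.52 (SE 0.13, adjusted p = 0.027). Its liver call was lost without any 1 of the brain or liver libraries (adjusted p = 0.0647 and 0.111 for brain replicates 1 and 2, and 0.0558, 0.0846 and 0.0568 for liver replicates 1 to 3). The subcutaneous call was lost without brain replicate 1 (0.0870), brain replicate 2 (0.126), liver replicate 2 (0.0517), subcutaneous replicate 2 (0.0752) or subcutaneous replicate 3 (0.0847), and when only those sites were fitted. In non-tumour cells Ndufb7 was at 251 and 276 per 1000000 in brain and 219 to 281 elsewhere.

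The 7 nuclear core subunits of complex I hold its flavin and its iron-sulphur clusters. They had 0 calls in any comparison, with 0 at an unadjusted p under 0.05 and 0 called by DESeq2. Of 29 accessory subunits, 2 were lower in brain than in liver beside the 2 that were higher (13.8% called, against 21.8% of all genes). Ndufb5 was at 266 and 298 CPM in brain, 333 to 355 in liver and 312 to 323 in subcutaneous tumour cells, a log2 difference from liver of -0.30 (SE 0.09, adjusted p = 0.040). Ndufs6, a zinc-binding subunit, was at 270 and 302 CPM in brain and 332 to 377 in liver (log2 difference -0.33, SE 0.10, adjusted p = 0.039). Each of these was lost without any 1 of 6 libraries (both brain libraries, liver replicates 1 and 2, and subcutaneous replicates 2 and 3), with adjusted p up to 0.261 for Ndufb5 and 0.238 for Ndufs6, and without cells holding macrophage or microglia UMIs. Ndufb5 was also lost in non-cycling cells, with no filter on low genes and when only those sites were fitted. Of the 8 Ndufaf assembly factors 1 was called. Ndufaf3, which helps to build the peripheral arm of complex I (chr9:108565537-108567434), was at 32.9 and 35.7 CPM in brain, 58.8, 60.8 and 52.0 in liver, and 49.4, 39.1 and 44.0 in subcutaneous tumour cells. Brain was lowest of all sites, by 0.74 log2 against liver (log2 difference -0.74, SE 0.13, adjusted p = 0.0052) and by a difference that missed the threshold against subcutaneous (-0.36, adjusted p = 0.082). The liver call held under all 23 alternatives tried.

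Complex II, the succinate dehydrogenase of the citrate cycle, has nuclear subunits only. Of its 4 subunits Sdhc, a membrane anchor, was lower in brain than in liver, at 75.2 and 74.1 CPM against 87.5, 97.6 and 93.2 (log2 difference -0.31, SE 0.09, adjusted p = 0.042). Subcutaneous libraries were at 75.7, 84.2 and 83.5 CPM. The Sdhc call was lost under 14 of 23 alternatives, among them both other scalings and leaving out any 1 of 6 libraries. Of the 4 Sdhaf assembly factors, Sdhaf1 (chr7:30321406-30323895), which helps to insert iron-sulphur clusters, was highest in liver. It was at 67.5 and 61.6 CPM in brain, 100.5, 89.0 and 77.9 in liver, and 62.2, 54.2 and 59.7 in subcutaneous libraries. Liver lay above all 5 others, with a log2 difference of -0.47 for brain against liver (SE 0.12, adjusted p = 0.028) and 0.60 for liver against subcutaneous (SE 0.11, adjusted p = 0.029). The first was lost without brain replicate 1 (adjusted p = 0.0853), brain replicate 2 (0.156), liver replicate 1 (0.0738) or liver replicate 2 (0.0655), and after thinning to 3000 UMIs. The second was lost without brain replicate 1 (0.0502), brain replicate 2 (0.0508), liver replicate 1 (0.0921), liver replicate 2 (0.13), subcutaneous replicate 2 (0.0998) or subcutaneous replicate 3 (0.0693).

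Complex III, the cytochrome bc1 complex, had 1 call among 8 nuclear genes. Uqcrq, a small ubiquinone-binding subunit, was at 439 and 427 CPM in brain, 607, 551 and 502 in liver, and 536, 482 and 471 in subcutaneous tumour cells. Brain lay below all others, with a log2 difference from liver of -0.35 (SE 0.11, adjusted p = 0.044), and the call was lost without any 1 of 6 libraries (both brain libraries, liver replicates 1 and 2, and subcutaneous replicates 2 and 3, adjusted p 0.0619 to 0.165), in non-cycling cells and without cells holding macrophage or microglia UMIs. ATP synthase had 0 calls among 16 tested nuclear genes in any comparison, with 0 at an unadjusted p under 0.05 and 0 called by DESeq2. Its log2 differences ran from -0.29 to 0.13 for brain against liver, from -0.19 to 0.20 for brain against subcutaneous and from -0.03 to 0.23 for liver against subcutaneous.

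Complex IV, the cytochrome c oxidase, had 4 calls among 18 tested nuclear genes between brain and liver (22.2%, against 21.8% of all genes), 1 between brain and subcutaneous (5.56%, against 15.1%) and 1 between liver and subcutaneous (5.56%, against 2.83%). Several of its subunits exist as a common form and a paralogue known from particular tissues or from low oxygen. Of the 18, 3 were higher in brain than in liver (Cox6b2, Cox6a2 and Ndufa4l2), 1 was lower (Cox4i2), 1 was higher in brain than in subcutaneous (Cox6b2) and 1 was lower in liver than in subcutaneous (Cox6a2). All of them are alternative paralogues, while the alternative paralogues Cox7a1 and Cox7b2 were not called and Cox8b was not tested. The common partners passed the test in no comparison: Cox4i1 had log2 differences of 0.08, 0.17 and 0.09 for brain against liver, brain against subcutaneous and liver against subcutaneous, Cox6a1 had -0.16, -0.01 and 0.15, Cox6b1 had -0.18, 0.01 and 0.19, and Ndufa4 had -0.03, 0.23 and 0.26. Cox4i1, for example, was at 1295 and 1445 CPM in brain, 1283 to 1318 in liver and 1204 to 1229 in subcutaneous tumour cells.

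Cox6b2, the testis isoform of the subunit that links the monomers of the complex IV dimer (chr7:4751792-4753094), was at 8.51 and 7.43 CPM in brain, 4.04, 4.11 and 3.65 in liver, and 3.26, 2.18 and 1.84 in subcutaneous tumour cells. The 3 sites did not overlap. Brain was higher by 1.02 log2 than liver (SE 0.23, adjusted p = 0.015) and by 1.72 than subcutaneous (SE 0.23, adjusted p = 0.0035). The subcutaneous call held under all 23 alternatives, and the liver call was lost without brain replicate 1 (0.0897), brain replicate 2 (0.0540), liver replicate 1 (0.0510) or liver replicate 2 (0.0523). In non-tumour cells Cox6b2 stood at 16.0 and 29.5 UMIs per 1000000 in brain, 14.1 to 21.6 in liver and 0 to 13.4 in subcutaneous. The brain and liver values lay above the brain tumour cells (8.81 and 7.62 per 1000000), and the subcutaneous values on both sides. The part of this RNA in the brain tumour value was not tested beyond leaving out cells with macrophage or microglia UMIs, where both calls held. Cox6a2, the heart and muscle isoform, was at 3.43 and 2.95 CPM in brain, 0.302, 0.333 and 0.420 in liver, and 3.05, 1.09 and 0.927 in subcutaneous tumour cells. Liver was lowest, 3.17 log2 under brain (SE 0.51, adjusted p = 0.0039), a call that held under all 23 alternatives. Liver against subcutaneous gave -2.24 (SE 0.47, adjusted p = 0.043), which was lost without brain replicate 1 (0.0768), brain replicate 2 (0.0790), liver replicates 1, 2 or 3 (0.163, 0.201 and 0.0851) or subcutaneous replicate 2 (0.0684), when only those sites were fitted, with the tumour threshold at 0.4% and after thinning to 3000 UMIs. The lowest library rested on 14 UMIs. In non-tumour cells Cox6a2 stood at 43.9 and 32.2 per 1000000 in brain, with 206 and 47 UMIs, and at 0 to 2.12 elsewhere. The part of RNA from those cells in the brain tumour value was not tested beyond leaving out cells with macrophage or microglia UMIs, under which the call held.

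Ndufa4l2, a paralogue of Ndufa4 known as a hypoxia target, was at 7.08 and 10.1 CPM in brain, 1.56, 1.53 and 1.39 in liver, and 19.4, 6.50 and 3.32 in subcutaneous tumour cells. Liver was lowest and the subcutaneous libraries spread on both sides of brain. The log2 difference was 2.53 for brain against liver (SE 0.65, adjusted p = 0.030) and -2.70 for liver against subcutaneous (adjusted p = 0.065). Against subcutaneous, brain was at -0.17 (adjusted p = 0.89) with all libraries and at 0.82 (adjusted p = 0.0498) without subcutaneous replicate 1. This sign also changed in non-cycling cells, without brain replicate 1 and without cells holding macrophage or microglia UMIs, where the test was not passed. The liver call was lost without brain replicate 1 (0.0605), brain replicate 2 (0.111) or liver replicates 1, 2 or 3 (0.0867, 0.0809 and 0.0722), in non-cycling cells and with no filter on low genes. In non-tumour cells Ndufa4l2 was at 27.9 and 9.60 per 1000000 in brain, 71.4, 17.6 and 0 in subcutaneous, and 0 in all 3 liver libraries, where 0 allows up to 13.2, 4.98 and 10.4 per 1000000 by the exact 95% interval. Cox4i2, the isoform known from lung and low oxygen, was at 1.56 and 0.881 CPM in brain, 3.41, 2.77 and 2.14 in liver, and 1.70, 2.07 and 1.89 in subcutaneous tumour cells, with brain lowest. Its log2 difference from liver was -1.21 (SE 0.32, adjusted p = 0.026), lost without brain replicate 2 (0.165), liver replicate 1 (0.0826) or liver replicate 2 (0.0696). Among the Cox7a genes none passed the test: Cox7a1 (0.624 to 1.49 CPM) had -0.30, -0.31 and -0.01, Cox7a2 had -0.14, 0.04 and 0.18, and Cox7a2l, a factor of supercomplex assembly, had -0.27, 0.05 and 0.32 in the order above. Cox8a had -0.19, 0.03 and 0.22, while its muscle partner Cox8b stood at 0 to 0.327 CPM and was not tested. Cox7b2, another low paralogue (0.0158 to 0.49 CPM), had 2.03 and 2.46 in the brain comparisons without passing (adjusted p = 0.10 and 0.073).

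The genes lying next to the called nuclear genes were examined within 500 kb, after the values of the called genes were known. Around Ndufs5, 7 other genes were tested, and 4 of them were higher in brain than in both other sites: Macf1 (log2 differences 0.49 from liver and 0.67 from subcutaneous), Akirin1 (1.03 and 0.69), Mycbp (0.86 and 0.70) and Rragc (1.84 and 1.37). Pabpc4 was lower in brain than in liver (-1.17) and missed the threshold against subcutaneous (-0.57, adjusted p = 0.061). The neighbours' median log2 difference was 0.86 and 0.69. The start of Ndufs5 lies 717.1 kb from that of Mycl, 1 of the 2 genes that define the tumour cells, and Mycl itself was at 4987 and 4052 CPM in brain, 8363, 8026 and 7574 in liver, and 3909, 6224 and 6222 in subcutaneous tumour cells. Around Ndufb7, 13 of 23 tested neighbours were higher and 2 lower in brain than in liver, and 11 were higher and 1 lower than in subcutaneous, against 13.2% and 8.94% of all genes that were higher. Among them were Tecr (0.77 and 0.57), Dnajb1 (1.11 and 0.61), Gipc1 (0.69 and 0.76), Scoc (0.86 and 0.74) and Prkaca (0.75 and 0.70). Their median was 0.76 against liver and 0.70 against subcutaneous. Around Cox6b2 it was 2 higher and 4 lower of 26 against liver, with a median of -0.05, and 1 higher and 1 lower against subcutaneous. Around the other 9 called nuclear genes 0 to 6 neighbours were higher and 0 to 7 lower, for example 4 higher and 7 lower of 26 around Sdhc, and 4 higher and 0 lower of 12 around Uqcrq, which was itself lower in brain.

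The neighbour counts moved with single libraries. For Ndufs5 the number higher in brain was 2 without brain replicate 2 against liver, 2 without brain replicate 1 against subcutaneous, and 3 to 4 otherwise. For Ndufb7 it was 8 without brain replicate 2 and 10 to 17 otherwise against liver. Against subcutaneous it was 7 without brain replicate 1, 5 without brain replicate 2, 4 without subcutaneous replicate 2 or 3, 8 to 9 without a liver library and 17 without subcutaneous replicate 1. Neighbouring genes are not independent of each other, and what the runs of neighbours share was not tested.

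**Figure D5:**
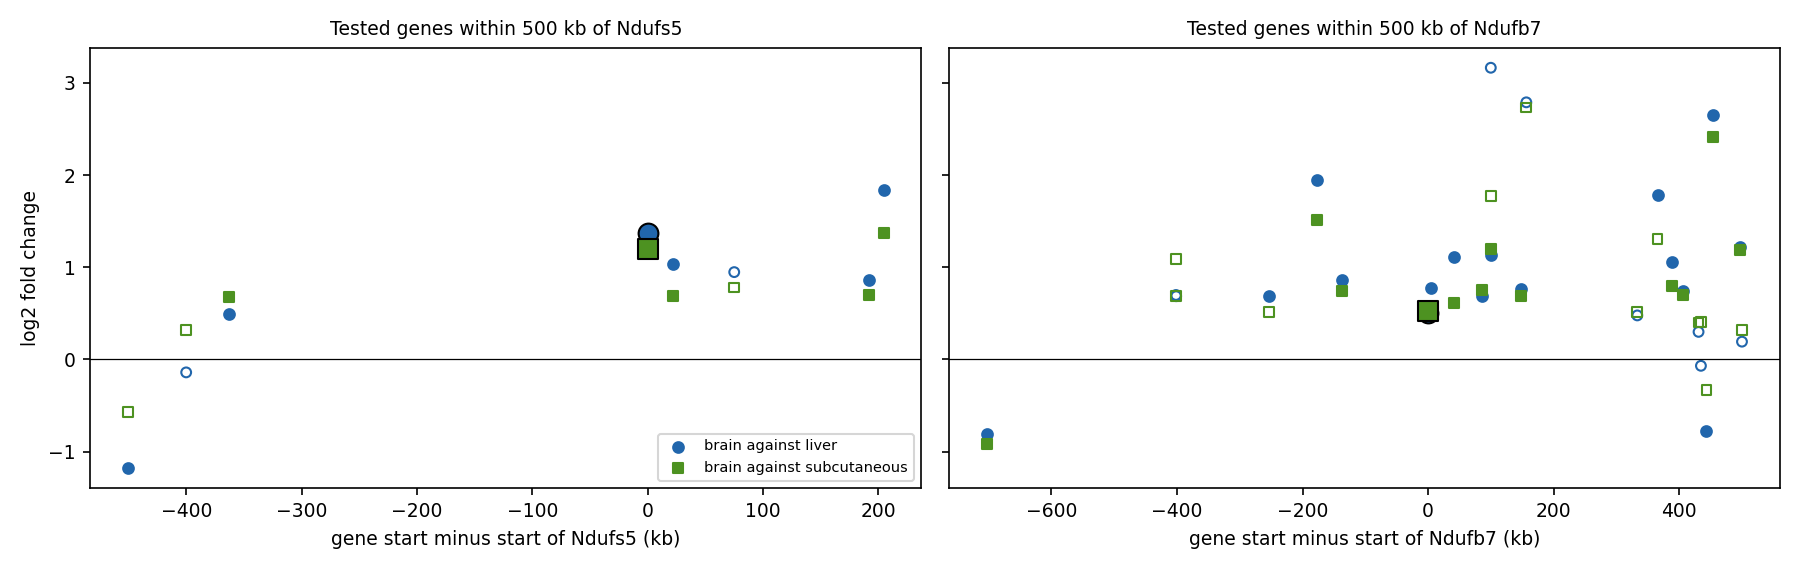
Log2 fold change of tested genes within 500 kb of Ndufs5 (left) and Ndufb7 (right) against the distance between gene starts in kb, with circles for brain against liver and squares for brain against subcutaneous. Filled symbols passed an adjusted p under 0.05, and the outlined large symbols are Ndufs5 and Ndufb7 themselves. In both regions most neighbours lie above 0, with medians of 0.69 to 0.86.

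Other lists of the respiratory system were counted over the same tests, in the order brain against liver, brain against subcutaneous and liver against subcutaneous. Over all genes tested 21.8%, 15.1% and 2.83% were called (13.2%, 8.94% and 0.933% higher, 8.56%, 6.13% and 1.9% lower in the first site). In the brain comparisons the called shares were 22.2% and 33.3% for cytochrome c and ubiquinone and 14.3% and 0% for complex IV assembly. They were 13.3% in both for the citrate cycle and 14.3% and 28.6% for the regulators. The mitochondrial ribosome gave 7.69% and 3.85%, and the cytosolic ribosome 33.7% and 6.93%. Of 9 genes of cytochrome c and ubiquinone synthesis, 2, 2 and 0 were lower in the first site and 0, 1 and 0 higher. Coq3, a methyltransferase of ubiquinone synthesis, was lower in brain in both comparisons (-1.02 and -0.82), Cyc1 of complex III was lower than in liver (-0.38), and Coq8a was higher than in subcutaneous (0.84). Of 14 complex IV assembly genes 2 were called between brain and liver, Cox16 (0.93) and Cox19 (-0.37), and 0 between brain and subcutaneous (3 at an unadjusted p under 0.05, 1 called by DESeq2). Liver against subcutaneous gave 0 for both lists in edgeR, with 2 and 1 at an unadjusted p under 0.05 and 0 and 1 called by DESeq2. Of 15 citrate cycle genes, Cs, the citrate synthase (-0.56 and -0.38), and Pdha1, a subunit of pyruvate dehydrogenase (-0.48 and -0.42), were lower in brain in both comparisons. Of 7 tested regulators of respiratory genes, Esrra was lower in brain in both comparisons (-0.43 and -0.49) and Yy1 lower than in subcutaneous (-0.48), while Nrf1 (-0.14 and -0.26) and Gabpa (-0.01 and -0.20) did not pass. Of 78 mitochondrial ribosome genes 6 were lower in brain than in liver, a count that ran from 0 to 14 as single libraries were left out, and 2 were higher and 1 lower in brain than in subcutaneous. Of 101 cytosolic ribosome genes 33 were lower and 1 higher in brain than in liver, with 4 to 57 lower as single libraries were left out (fewest without brain replicate 1, most without liver replicate 3). Between brain and subcutaneous 4 of them were lower and 3 higher, and between liver and subcutaneous 2 were higher (55 by DESeq2). For liver against subcutaneous edgeR called 0 citrate cycle genes, 0 regulators and 0 mitochondrial ribosome genes, with 1, 0 and 5 at an unadjusted p under 0.05 and 0, 0 and 2 called by DESeq2.

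The 12 genes of mitochondrial DNA and RNA upkeep held 1 wide difference. Of them 8.33% were called between brain and liver and 16.7% between brain and subcutaneous, against 21.8% and 15.1% of all genes. Lrpprc, which stabilises mitochondrial messages, was at 208 and 251 CPM in brain, 36.0, 30.7 and 32.2 in liver, and 94.2, 30.8 and 29.9 in subcutaneous tumour cells. Brain stood far above the other libraries, and subcutaneous replicate 1 stood above the rest. The log2 difference was 2.80 from liver (SE 0.48, adjusted p = 0.0076) and 2.16 from subcutaneous (SE 0.47, adjusted p = 0.025). The latter was lost without brain replicate 1 (0.0659), brain replicate 2 (0.0787), subcutaneous replicate 2 (0.0670) or subcutaneous replicate 3 (0.0620). Slirp, its partner protein, had 0.01 and 0.06, and Tfam, which packages mitochondrial DNA, was at 53.2 and 55.8 CPM in brain and 47.5 to 58.5 elsewhere, with neither passing the test. Tfb2m, a transcription factor of mitochondria, was lower in brain than in subcutaneous (-0.51). Between liver and subcutaneous 0 of the 12 were called by edgeR and 0 by DESeq2, with 2 at an unadjusted p under 0.05.

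The glycolysis and hypoxia list moved much more than the respiratory genes. Of its 16 tested genes 12 were lower in brain than in liver and 2 higher. Against subcutaneous, 15 were lower in brain and 7 lower in liver. The medians of the 3 comparisons were -0.73, -1.25 and -0.49. The called shares were 87.5%, 93.8% and 43.8%, against 21.8%, 15.1% and 2.83% of all genes. Aldoa, a glycolytic enzyme, was at 280 and 269 CPM in brain, 437 to 553 in liver and 1022 to 1320 in subcutaneous tumour cells, and the 3 sites did not overlap. Egln3, an oxygen sensor that rises in low oxygen, was at 9.84 and 9.69 CPM in brain, 26.7 to 31.2 in liver and 58.0 to 86.9 in subcutaneous libraries. Hk2 (log2 difference 1.55) and the glucose transporter Slc2a1 (1.23) were higher in brain than in liver. The count lower in brain than in liver was 3 without brain replicate 1, 7 without brain replicate 2 and 10 to 12 otherwise. Between liver and subcutaneous it was 5 to 15.

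Subcutaneous replicate 1 stood apart from the other subcutaneous libraries for several nuclear genes, chosen here after their values were seen. This was not particular to that site. Liver replicate 1 was the lowest liver library for Atp5b, and the lowest of all 8 libraries for Uqcrc1, Sdha and Ndufs1. Atp5b, the catalytic subunit of ATP synthase, was at 1020, 1419 and 1365 CPM in the subcutaneous libraries, 1015 and 1235 in brain, and 1089, 1354 and 1548 in liver. Its lowest values were in brain replicate 1, subcutaneous replicate 1 and liver replicate 1. Uqcrc1 of complex III was at 182 and 219 CPM in brain, 172, 217 and 255 in liver, and 174, 234 and 231 in subcutaneous tumour cells. Sdha of complex II was at 78.4 and 94.6 CPM in brain, 63.1, 85.7 and 96.0 in liver, and 66.3, 88.8 and 87.6 in subcutaneous libraries, and Ndufs1 of complex I at 49.97 and 55.5, 40.9, 51.2 and 69.7, and 42.6, 60.0 and 57.0 CPM. Uqcr11, a small complex III subunit, ran the other way, at 487 and 529 CPM in brain, 436 to 485 in liver, and 609, 398 and 384 in subcutaneous libraries. For all 5 genes the subcutaneous values, and also the liver values, spanned a wider range than the difference between site means.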

How the data were processed

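Single-cell 3' RNA libraries of 8 allografts were analysed, 1 matrix of UMI counts per library as deposited by the authors. The values are whole-number counts, written by software version 3.0.0 per the file headers. Per the submitters' processing notes Cell Ranger, STAR and mm10 were used, and their settings are not given in the sources used here. Genes were placed by identifier on GENCODE M21 (GRCm38), where 21952 of 22056 had a position, and promoters came from RefSeq.

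Kept tumour cells had eGFP and Mycl UMIs at 0.2% or more, at least 500 genes and at most 10% mitochondrial UMIs. No doublet caller was run, and an alternative left out the deepest 4% of cells. UMIs were summed per library and fitted in edgeR 4.0.16 (R 4.3.3, limma 3.58.1) with TMM factors, filterByExpr, robust quasi-likelihood F tests and 1 mean per site over 8 libraries (5 residual degrees of freedom, with a biological variation coefficient of 17.9%). Genes left untested held 0.0133% of UMIs. The SE is the log2 fold change divided by the root of F. CPM are UMIs over the TMM-scaled library size and are not divided by gene length, so levels are compared between libraries only. Cycling cells were defined from 10 G2/M genes after thinning to 3000 UMIs. Python 3.11.15 with scipy 1.17.1 and matplotlib 3.10.9 was used for intervals and plots. The edgeR fit was tested on simulated summed counts, with the same variation for every gene and no outlying library. Cell choice, thinning, shares, neighbours and motifs were not part of that test.

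Named genes are every mitochondrial gene, up to 8 called genes per direction and comparison with the largest change at 10 CPM or more, isoform pairs and listed pathway genes. A few genes are left unreported here. The genes and lists were chosen with earlier results of these data known. Alternatives covered DESeq2 1.42.0, scaling, gene and cell filters, thinning, host RNA, cell cycle, a replicate block, fits of the compared sites only and leaving out each library. Tumour cells held 21689091 UMIs or more per library, and genes under 1 CPM rest on few UMIs. The 2 or 3 libraries per site also limit the precision.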

Additional observations from a re-analysis of the deposited data

How the results depend on the processing

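The differences between site means in the shares of UMIs and in their ratio moved by less than the spread between libraries under every alternative tried. That spread was 0.187 for the mitochondrial share, 0.149 for the nuclear share and 0.0619 for the ratio. Differences smaller than this spread could change sign. The ratio of brain minus liver went from 0.054 to -0.000394 without brain replicate 1. Without brain replicate 2 the nuclear share of brain minus liver went from 0.111 to -0.0144. That of brain minus subcutaneous went from 0.106 to -0.0193. The differences in mitochondrial share kept their sign. The values of a single library could move further. In brain replicate 1 the mitochondrial share was 3.08%, 3.29% with no mitochondrial limit and 2.82% with the 5% limit. Its ratio was 0.965, 1.03 and 0.886. Calls of single genes also moved. Between brain and liver 14 genes were called, 9 in non-cycling cells only, and 3 to 19 when single libraries were left out. Between brain and subcutaneous 7 were called, 13 by DESeq2, 2 when only those sites were fitted, and 1 to 25 when single libraries were left out. Between liver and subcutaneous 2 were called, 13 by DESeq2, 1 when only those sites were fitted, 1 with the tumour threshold at 0.4%, and 0 to 13 when single libraries were left out. The difference of Ndufa4l2 between brain and subcutaneous ran from -0.56 (without subcutaneous replicate 3) to 0.82 (without subcutaneous replicate 1), against -0.17 with all libraries. The cause of these changes was not tested, beyond the fewer libraries of the smaller fits. No scaling moved the median of all genes by more than 0.1 log2. The sites share replicate numbers, and the main fit did not pair libraries by them. The deviations of same-numbered libraries from their site means were correlated above 0.1 for 2 of 7 pairs. They were 0.179, -0.123 and 0.232 for liver and subcutaneous, 0.0114 and -0.0107 for brain and liver, and 0.091 and 0.077 for brain and subcutaneous. These correlations cannot decide whether the numbers pair the libraries. Differently numbered libraries were not compared, and the deviations of the 2 brain libraries mirror each other. With the replicate number as a block, 12, 6 and 2 genes were called in the 3 comparisons. At an unadjusted p under 0.05 in edgeR's test there were 30, 17 and 22, against 23, 16 and 16 without the block. Lost under the block were mt-Atp8 against liver and against subcutaneous, Sdhc and Ndufa4l2 between brain and liver, and Cox6a2 between liver and subcutaneous. Between brain and liver 2 mitochondrial genes were called under the block, so another joined as mt-Atp8 was lost. Between liver and subcutaneous 1 mitochondrial gene was called, against 0 without the block. As a hint from the data, replicate 1 had the highest mitochondrial share and ratio, and the lowest Atp5b, Uqcrc1, Sdha and Ndufs1, of each site. Depth limits Cox4i2, Cox6a2, Cox7a1, Cox7b2 and Cox8b, whose lowest libraries hold 35, 14, 14, 1 and 0 UMIs.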
